A study of Mus musculus with 6 samples.

Results

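The genes described here encode cell adhesion proteins of macrophages: the junctional adhesion molecule gene F11r and 9 integrin subunit genes, Itgav, Itga6, Itgb5, Itgb3, Itgam, Itgax, Itga4, Itgb1 and Itgb2. They are 10 of the 22180 genes that had at least 1 probe set with a single gene symbol on the array, and the brightest such probe set stood for each gene. They are a list of names chosen by the measured differences of the same arrays, in which F11r, Itgav, Itga6 and Itgb5 stood out between CX3CR1high and CX3CR1low cells, together with other integrin chains. Their differences between subsets are therefore descriptions: counts of them past the threshold of a fit over all genes are given beside the share of all genes past it, and support nothing. The array signal of all 10 lay above the dim level, the 30th percentile of mean signal over all genes, 4.335 on the log2 scale, in each of the 6 samples.

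Macrophages were sorted by flow cytometry from digested ear skin of C57Bl/6 mice aged 2 weeks, as CX3CR1high, CX3CR1int (intermediate) and CX3CR1low cells, with 2 samples of each subset. Each sample was a pool of 4 mice, and the samples of a subset came from 2 independent litters. All mice were Cx3cr1+/gfp, so that in every group green fluorescent protein replaced a single copy of the fractalkine receptor gene and reported its activity, and no group carried the unmodified locus. The arrays had median log2 signals of 4.84 to 4.94, and their number limits the precision of every value. Macrophage markers, 6 of 6 tested (Adgre1, Csf1r, Fcgr1, Mertk, Cd68 and Cd14), lay between 7.63 and 12.33 in all samples, and limma called none of them in any comparison, with 1 of the 6 (Cd14) at an unadjusted p under 0.05 between CX3CR1high and CX3CR1low cells. The 3 replicates numbered 1 and the 3 numbered 2 differed in sex composition (Xist at 7.97, 7.61 and 7.39 against 11.39, 10.99 and 11.24 in CX3CR1high, CX3CR1int and CX3CR1low samples), and this is part of the spread between the samples of a subset.

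Integrins are receptors made of an alpha and a beta chain that hold cells to the matrix and to other cells and carry signals across the membrane in both directions. The alpha chain, here that of Itgav, Itga6, Itga4, Itgam or Itgax, largely sets which ligands are bound, while the beta chain links to the cytoskeleton. The chain of Itgav pairs with those of several beta genes, among them Itgb5, Itgb3 and Itgb1, and binds vitronectin and fibronectin. That of Itga6 pairs with the chain of Itgb1 or Itgb4 and binds laminin, and that of Itga4 pairs with the chain of Itgb1 or Itgb7 and binds the vascular adhesion molecule encoded by Vcam1. Itgb2 encodes the beta chain of leukocytes, which joins those of Itgam and Itgax into complement receptors and that of Itgal into the lymphocyte function antigen. F11r encodes an immunoglobulin-type protein of epithelial and endothelial junctions that is also found on leukocytes and platelets, where it takes part in leukocyte migration.

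The sequences upstream of F11r, Itgb5, Itgax and Itgam are shown as examples. The first 3 genes were higher in CX3CR1high cells, though Itgax did not pass the threshold. Itgam, a leukocyte integrin gene next to Itgax on the same chromosome, was not higher. Itga4 and Itgb1 were also higher without overlap of the samples, and their windows were searched but are not printed. The printed sequences are RefSeq sequences of build GRCm38.p6, on the plus strand, and end at the base before the annotated start of the gene. Capitals mark matches, on either strand, to 3 motifs that do not overlap here: TGANTCA of AP-1, GAGGAA of PU.1-type ETS factors and GGGCGG of GC boxes.
F11r, chr1:171437311-171437560: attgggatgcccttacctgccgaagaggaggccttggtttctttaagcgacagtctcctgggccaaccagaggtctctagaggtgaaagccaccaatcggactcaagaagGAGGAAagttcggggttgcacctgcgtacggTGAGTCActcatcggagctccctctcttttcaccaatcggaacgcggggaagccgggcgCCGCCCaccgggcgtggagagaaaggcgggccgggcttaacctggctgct
Itgb5, chr16:33829415-33829664: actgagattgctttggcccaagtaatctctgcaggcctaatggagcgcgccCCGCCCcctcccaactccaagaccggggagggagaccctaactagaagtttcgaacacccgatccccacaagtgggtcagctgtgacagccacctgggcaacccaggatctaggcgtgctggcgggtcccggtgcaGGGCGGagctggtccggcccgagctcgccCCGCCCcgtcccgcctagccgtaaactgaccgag
Itgax, chr7:128129300-128129525: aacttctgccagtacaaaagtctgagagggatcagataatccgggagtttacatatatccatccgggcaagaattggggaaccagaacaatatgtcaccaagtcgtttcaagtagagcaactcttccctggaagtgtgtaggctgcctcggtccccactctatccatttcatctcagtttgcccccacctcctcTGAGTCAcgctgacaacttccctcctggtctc
Itgam, chr7:128062390-128062639: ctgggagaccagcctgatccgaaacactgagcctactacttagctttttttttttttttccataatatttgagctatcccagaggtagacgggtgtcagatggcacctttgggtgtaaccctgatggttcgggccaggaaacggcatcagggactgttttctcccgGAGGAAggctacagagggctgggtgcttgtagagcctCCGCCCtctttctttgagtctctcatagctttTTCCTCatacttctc

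The 3 motifs were searched in the 250 bases before the transcript start of 27025 genes, of which 6.87% held TGANTCA, 23.1% GAGGAA and 32.9% GGGCGG. Windows were found for 7 of the 10 genes, and none was found for Itga6, Itgb3 or Itgb2 among the promoter sequences used. The AP-1 motif was in the windows of F11r (bases -109 to -103, counted back from the annotated start of the gene) and Itgax (bases -32 to -26, counted likewise), and in none of the other 5, those of Itgav, Itgb5, Itgam, Itga4 and Itgb1. GAGGAA was in the windows of F11r, Itgav, Itgam and Itgb1, and the GC box in those of F11r, Itgb5, Itgam, Itga4 and Itgb1. The last 24 bases of the Itgax window lay inside the annotated gene and are not printed, which leaves 226. A match describes the letters of the window and is not evidence of binding. The Itgav window lay inside the annotated gene, downstream of a further start, and is not printed.

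**Figure D1:**
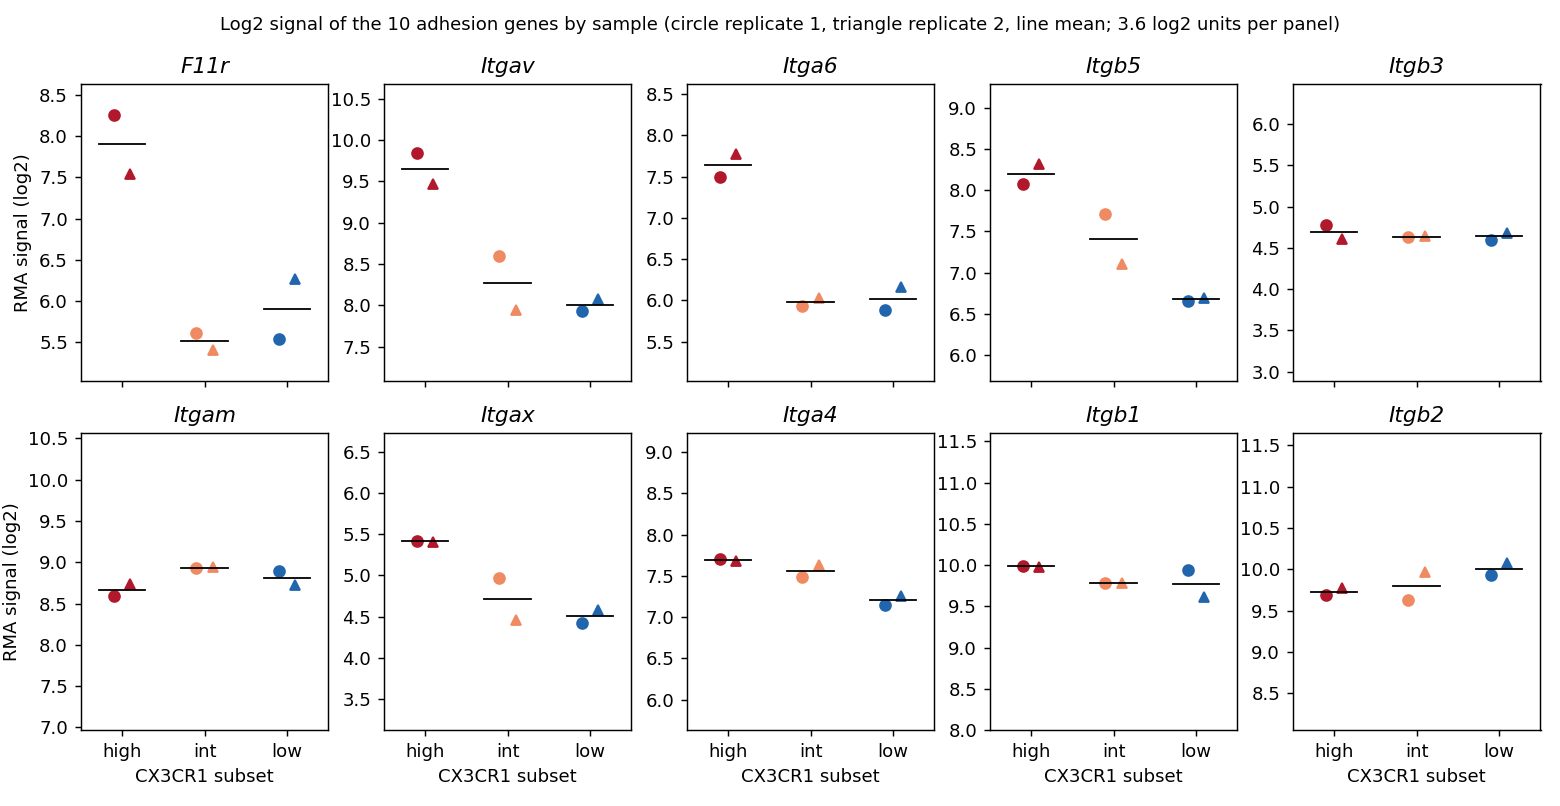
Log2 array signal of the 10 genes (vertical axis, each panel spanning the same number of log2 units) in CX3CR1high, CX3CR1int and CX3CR1low samples (circles replicate 1, triangles replicate 2, lines means). F11r, Itgav, Itga6 and Itgb5 stand highest in both CX3CR1high samples, and Itgb3, Itgb1, Itgb2 and Itgam vary by less than 0.5 log2 units over all samples.

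Levels are given below as log2 array signals and differences as log2 differences of subset means with the standard error of the limma fit. In bulk samples fewer cells that express a gene and less RNA of it per cell cannot be told apart. The comparisons share samples, those of each subset serving both comparisons that contain it, and their values stand side by side without being independent.

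F11r, the junctional adhesion molecule, had the widest range over the 6 samples of the 10 genes, 2.85 log2 units. Its signal was 8.26 and 7.54 in CX3CR1high samples, 5.62 and 5.41 in CX3CR1int samples and 5.54 and 6.27 in CX3CR1low samples. Both CX3CR1high samples lay above all 4 others, while the CX3CR1int samples overlapped with CX3CR1low, whose 2 samples were 0.73 apart in signal. The difference was 2.00 ± 0.30 (SE, n = 2 per subset) between CX3CR1high and CX3CR1low cells, or 3.99-fold, and 2.38 ± 0.30 between CX3CR1high and CX3CR1int cells, or 5.22-fold. Between CX3CR1int and CX3CR1low cells it was -0.39 ± 0.30, within the spread of the CX3CR1low samples.

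Itgav, which encodes the alpha chain of the vitronectin receptors, had signals of 9.84 and 9.47 in CX3CR1high, 8.60 and 7.94 in CX3CR1int and 7.93 and 8.07 in CX3CR1low samples. The CX3CR1high samples stood apart from the rest, and the CX3CR1int samples lay on both sides of a CX3CR1low sample. The differences were 1.66 ± 0.24 (3.15-fold) for CX3CR1high against CX3CR1low, 1.39 ± 0.24 (2.61-fold) for CX3CR1high against CX3CR1int, and 0.27 ± 0.24 for CX3CR1int against CX3CR1low cells (SE, n = 2 per subset).

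Another Itgav probe set (17387368) was dimmer than the one used (17372515), with a mean signal over all samples of 5.84 against 8.64. Its signals were 6.29 and 6.55 in CX3CR1high, 5.82 and 4.88 in CX3CR1int and 5.72 and 5.79 in CX3CR1low samples. Both probe sets put the CX3CR1high samples above all others, and in both the CX3CR1int sample 2 was well below the CX3CR1int sample 1. They differed in size: the dimmer set gave 0.67 for CX3CR1high against CX3CR1low cells, 1.07 for CX3CR1high against CX3CR1int cells and -0.41 for CX3CR1int against CX3CR1low cells, a comparison in which the brighter set gave a positive value. The mean of both gave 1.16 between CX3CR1high and CX3CR1low cells, and the place of Itgav past the threshold there rested on the probe set chosen.

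**Figure D2:**
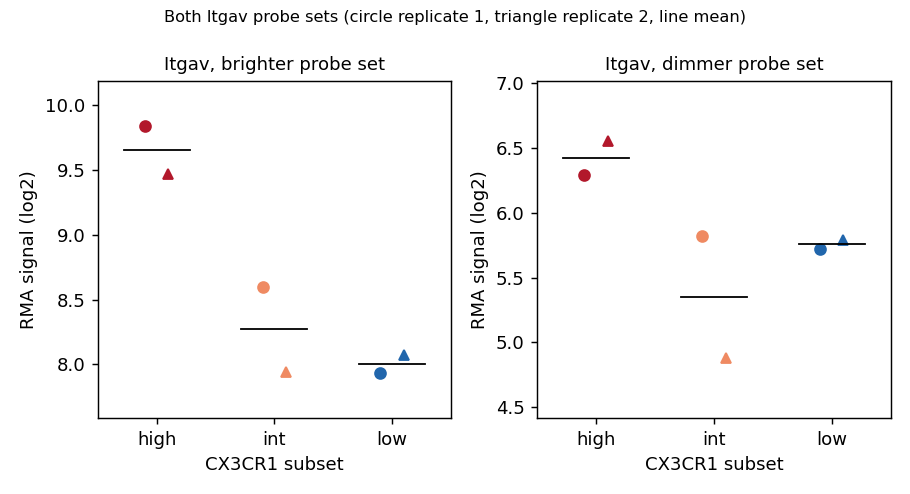
Log2 signal of the brighter (left) and dimmer (right) Itgav probe sets by sample in CX3CR1high, CX3CR1int and CX3CR1low cells (circles replicate 1, triangles replicate 2, lines means). Both show the CX3CR1high samples highest, by 1.66 and 0.67 log2 units over CX3CR1low, and both show the CX3CR1int sample 2 as their lowest or close to it.

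Genes of beta chains that pair with that of Itgav differed from it in their values. Itgb5, whose product pairs with the alpha-v chain alone and serves vitronectin binding and the uptake of dying cells, had signals of 8.08 and 8.32 in CX3CR1high, 7.71 and 7.10 in CX3CR1int and 6.66 and 6.69 in CX3CR1low samples. No subset overlapped with another, and the CX3CR1int samples lay in between. The differences were 1.52 ± 0.23 for CX3CR1high against CX3CR1low (2.88-fold), 0.80 ± 0.23 for CX3CR1high against CX3CR1int and 0.73 ± 0.23 for CX3CR1int against CX3CR1low cells (SE, n = 2 per subset). Without the CX3CR1int sample 1 the last became 0.42 and the difference between CX3CR1high and CX3CR1int became 1.10, and without the CX3CR1int sample 2 they became 1.03 and 0.49, so that the place of CX3CR1int cells between the ends was known only roughly.

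Itgb3, the beta chain gene of the vitronectin receptor of osteoclasts and of the fibrinogen receptor of platelets, had signals of 4.78 and 4.61 in CX3CR1high, 4.63 and 4.64 in CX3CR1int and 4.60 and 4.68 in CX3CR1low samples. All lay close to the dim level, at which an array shows little of a difference, and the subsets overlapped in every comparison. The difference between CX3CR1high and CX3CR1low cells was 0.06 ± 0.16.

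Itga6, the alpha chain gene of the laminin receptors, had signals of 7.50 and 7.77 in CX3CR1high, 5.93 and 6.03 in CX3CR1int and 5.88 and 6.16 in CX3CR1low samples. The CX3CR1high samples stood more than 1 log2 unit above the other 4, which overlapped and spanned 0.28. The difference was 1.61 ± 0.19 (3.06-fold) against CX3CR1low cells and 1.66 ± 0.19 (3.15-fold) against CX3CR1int cells, and it was -0.04 ± 0.19 for CX3CR1int against CX3CR1low cells (SE, n = 2 per subset). Its partner Itgb1, the common beta chain gene, had signals of 9.99 and 9.98 in CX3CR1high, 9.78 and 9.78 in CX3CR1int and 9.94 and 9.61 in CX3CR1low samples. The CX3CR1high samples were the highest here too, but by 0.21 ± 0.16 over CX3CR1low cells, less than the 0.33 between the CX3CR1low samples.

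Itga4, the alpha chain gene of the receptor for Vcam1, had signals of 7.71 and 7.68 in CX3CR1high, 7.49 and 7.63 in CX3CR1int and 7.15 and 7.26 in CX3CR1low samples. As with Itgb5 the subsets did not overlap and followed the order of the sort, over a narrower range. The differences were 0.49 ± 0.17 between CX3CR1high and CX3CR1low, 0.14 ± 0.17 between CX3CR1high and CX3CR1int, and 0.35 ± 0.17 between CX3CR1int and CX3CR1low cells.

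Leukocyte integrin genes differed among themselves. Itgax, the gene of CD11c, an antigen of dendritic cells and of many tissue macrophages, had signals of 5.42 and 5.41 in CX3CR1high, 4.97 and 4.46 in CX3CR1int and 4.43 and 4.58 in CX3CR1low samples. It was higher in the CX3CR1high samples than in all others, by 0.91 ± 0.20 over CX3CR1low cells (1.88-fold) and by 0.70 ± 0.20 over CX3CR1int cells. The second value became 0.95 without the CX3CR1int sample 1 and 0.45 without the CX3CR1int sample 2. Neither difference passed (limma adjusted p = 0.149 and 0.392). The CX3CR1int sample 2 and both CX3CR1low samples lay close to the dim level of 4.335, at which an array shows little of a difference. Itgam, the gene of CD11b, had signals of 8.59 and 8.74 in CX3CR1high, 8.93 and 8.94 in CX3CR1int and 8.89 and 8.72 in CX3CR1low samples. Itgam overlapped between CX3CR1high and CX3CR1low samples (-0.14 ± 0.16) and was lower in CX3CR1high than in CX3CR1int samples by -0.27 ± 0.16. Itgb2, the beta chain gene that both need, had signals of 9.69 and 9.77 in CX3CR1high, 9.63 and 9.97 in CX3CR1int and 9.93 and 10.07 in CX3CR1low samples. It was lower in CX3CR1high than in CX3CR1low samples without overlap (-0.27 ± 0.16) and overlapped in the other comparisons.

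**Figure D3:**
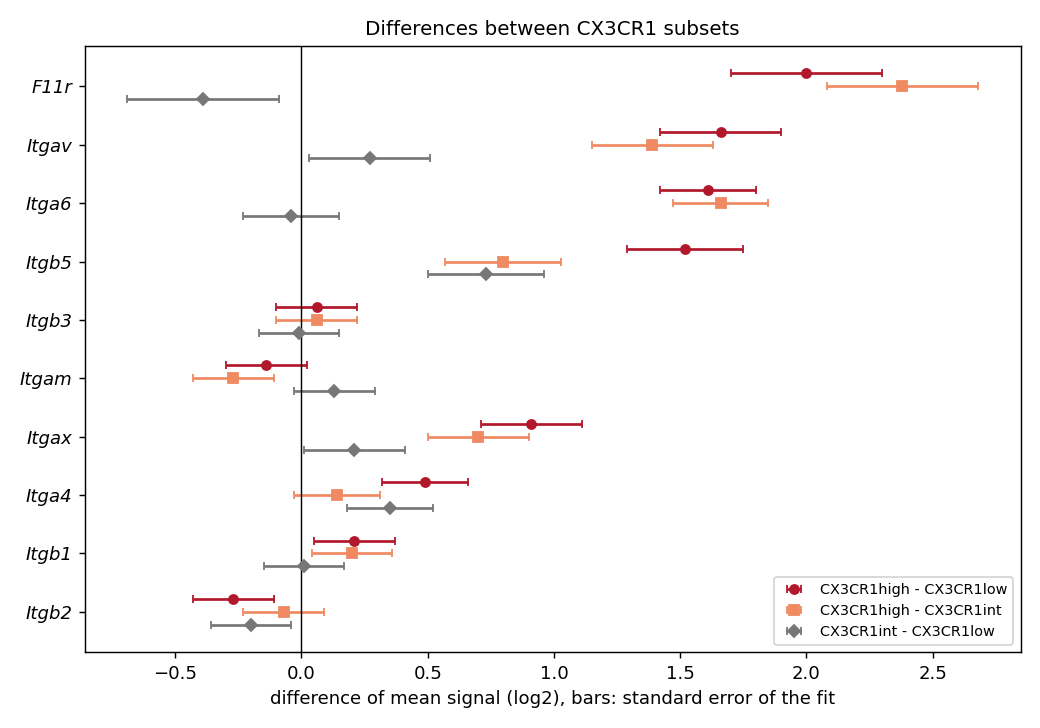
Differences of mean log2 signal (horizontal axis, bars show the standard error of the fit) for CX3CR1high minus CX3CR1low, CX3CR1high minus CX3CR1int and CX3CR1int minus CX3CR1low. F11r, Itgav and Itga6 lie above 1 in both comparisons of CX3CR1high cells and between -0.39 and 0.27 between the other subsets, while the Itgb5 difference splits into steps of 0.80 and 0.73.

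Between CX3CR1high and CX3CR1low cells 7 of the 10 genes were higher without overlap of the samples, against a background of 19.8% of all 15529 genes tested, and 1, Itgb2, was lower without overlap, against 18.4%. The fit called 4 of the 10, F11r, Itgav, Itga6 and Itgb5, all higher, at an adjusted p below 0.05, where 0.213% of all genes were called higher and 0.399% in either direction. Between CX3CR1high and CX3CR1int cells the same 7 were higher without overlap (background 18.3%), Itgam was lower (background 18.5%), and F11r and Itga6 were called (background 0.0773% called higher and 0.142% in either direction). Between CX3CR1int and CX3CR1low cells Itgb5, Itga4 and Itgam were higher without overlap (background 16.6%), and limma called none (background 0.00644% in either direction), with 1 gene, Itgb5, at an unadjusted p under 0.05. Since the genes were chosen with these comparisons known, nothing is read from these counts. Median differences of the 10 genes were 0.70, 0.45 and 0.07 in the 3 comparisons, against 0.01, 0.00 and 0.01 over all genes tested.

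Itgav joined the calls between CX3CR1high and CX3CR1int cells with the replicate number as a block, in a fit that called 0.303% of all genes there and 0.992% between CX3CR1high and CX3CR1low cells. None of the 4 calls between CX3CR1high and CX3CR1low cells held without the CX3CR1high sample 1, the CX3CR1high sample 2, the CX3CR1low sample 1 or the CX3CR1low sample 2, although the differences stayed between 1.41 and 2.36, and that of F11r also ended without either CX3CR1int sample or with only the 4 samples compared. The calls of F11r and Itga6 against CX3CR1int cells ended without any one of the 4 samples compared.

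Genes whose signals followed those of the 4 called genes most closely were sought among 1518 other genes with a range of at least 1 log2 unit, by Pearson correlation over the 6 samples, which share subsets and replicate numbers. For F11r they were Lat2 (0.974), an adaptor of immune receptor signalling, the transcription factor gene Bhlhe40 (0.973), the nestin gene Nes (0.971), AU020206 (0.971) and the collagen gene Col14a1 (0.971). For Itga6 they were Snord89 (0.991), Olfml3 (0.990), the activation antigen gene Cd69 (0.990), the collagenase gene Mmp13 (0.986) and Acp5 (0.977), the tartrate-resistant acid phosphatase gene known from osteoclasts. For Itgav they were the mitotic spindle gene Ckap2l (0.987), Rnf180 (0.986), Gm16907 (0.984), Gngt2 (0.983) and Zmynd15 (0.976). For Itgb5 they were Tnip3 (0.992), Ccrl2 (0.986), Cd93 (0.983), Atp8b4 (0.981) and Gpr165 (0.981). No gene stood in more than 1 of these short lists, but they cut through near-equal correlations over 6 samples, so nothing is read from that. Among the 4 themselves the correlation was highest between F11r and Itga6 (0.941) and lowest between F11r and Itgb5 (0.728). By likeness to F11r, Itga6 ranked 21 and Itgb5 181 among the 1518 genes. The 4 stood out by a difference over these same samples, so nothing is read from their correlation with each other.

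Of the 26 integrin subunit genes listed, the 9 above and 17 others, 23 were tested. The fit called 3 of them between CX3CR1high and CX3CR1low cells, Itgav, Itga6 and Itgb5 (background 0.399% of all genes in either direction). These 3 are among the genes that the list was chosen for, so nothing is read from this count. Of the 17 other subunits 14 were tested, and limma called none in any comparison, with 1 at an unadjusted p under 0.05 in each. These 17 remained after the subunits that stood out were placed among the 10, so nothing is read from their counts or median. Between CX3CR1high and CX3CR1low cells 5 of the 14 were higher and 9 lower, with a median of -0.05. The largest difference was that of Itgal, the alpha chain gene of the lymphocyte function antigen to which the F11r product binds, with signals of 6.41 and 6.42 in CX3CR1high, 6.00 and 6.26 in CX3CR1int and 5.95 and 5.85 in CX3CR1low samples. Its samples did not overlap between CX3CR1high and CX3CR1low cells, and the difference of 0.52 ± 0.18 did not pass (limma adjusted p = 0.374). Itga9 differed by 0.38 ± 0.20, Itga8 by 0.34 ± 0.17 and the platelet subunit gene Itga2b by 0.26 ± 0.17 on the log2 scale, and none passed.

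Other partner chains are named for their pairing, after their values were seen. Itgb4, the partner of Itga6 in the hemidesmosomes of basal keratinocytes, had signals of 5.37 and 5.28 in CX3CR1high, 5.30 and 5.23 in CX3CR1int and 5.54 and 5.36 in CX3CR1low samples. Itgb4 thus did not move with Itga6 by its values, differing by -0.12 between CX3CR1high and CX3CR1low cells. Itgb8, a partner of Itgav in the activation of latent TGF-beta, had signals of 4.78 and 4.42 in CX3CR1high, 4.52 and 4.76 in CX3CR1int and 4.79 and 4.67 in CX3CR1low samples. Itgb6, another such partner, had a mean of 3.88, below the dim level, and was not tested. Itgb7, the other partner of Itga4, was highest in CX3CR1int cells, with signals of 5.58 and 5.69 in CX3CR1high, 6.07 and 6.46 in CX3CR1int and 5.58 and 5.81 in CX3CR1low samples. Its difference between CX3CR1int and CX3CR1low cells was 0.57 and did not pass (limma adjusted p = 0.97).

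Junction molecules and partners of F11r numbered 18, of which 15 were tested and limma called none in any comparison (background 0.399% between CX3CR1high and CX3CR1low cells). Between CX3CR1high and CX3CR1low cells 6 were higher and 9 lower, with a median of -0.05, and none had an unadjusted p under 0.05. The other junctional adhesion molecule genes stayed low, Jam2 with signals of 5.01 and 4.90 in CX3CR1high, 4.56 and 4.48 in CX3CR1int and 4.55 and 5.03 in CX3CR1low samples, and Jam3 below the dim level with a mean of 3.92. The tight junction scaffold gene Tjp1 differed by -0.51 ± 0.32 between CX3CR1high and CX3CR1low cells, the claudin gene Cldn1 by -0.48 ± 0.25, Cd99l2 by -0.40 ± 0.22 and Cxadr by -0.25 ± 0.19. None of these passed, and in each the CX3CR1low sample 2 was the highest of all samples. In Tjp1 and Cldn1 the CX3CR1low sample 1 (5.28 and 6.98) overlapped with the CX3CR1high samples.

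Genes of integrin ligands numbered 36, of which 30 were tested and limma called none in any comparison (background 0.399% between CX3CR1high and CX3CR1low cells). Of the 30, 10 were higher and 20 lower between CX3CR1high and CX3CR1low cells, with a median of -0.15 and 2 at an unadjusted p under 0.05. The largest difference was that of Npnt, which encodes nephronectin, a matrix ligand of the integrin made of the alpha-8 and beta-1 chains. Its signals were 5.51 and 5.83 in CX3CR1high, 5.24 and 5.50 in CX3CR1int and 4.94 and 4.24 in CX3CR1low samples, without overlap of CX3CR1high and CX3CR1low, and its difference of 1.08 ± 0.25 did not pass (limma adjusted p = 0.172). The periostin gene Postn differed by -0.79 ± 0.41, the fibronectin gene Fn1 by -0.66 ± 0.56 and the laminin gene Lama4 by -0.60 ± 0.36, and in each the CX3CR1low sample 2 was the highest of all samples.

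Among genes of integrin activation and signalling, 26 of 32 were tested and limma called none in any comparison (background 0.399% between CX3CR1high and CX3CR1low cells). Of the 26, 11 were higher and 14 lower between CX3CR1high and CX3CR1low cells, with a median of -0.02 and 2 at an unadjusted p under 0.05. Parvg, which encodes the parvin of blood cells that links integrins to actin through the integrin-linked kinase, had signals of 6.04 and 5.95 in CX3CR1high, 5.09 and 5.16 in CX3CR1int and 4.87 and 5.16 in CX3CR1low samples. Both CX3CR1high samples were above all 4 others, and the difference of 0.98 ± 0.18 missed the threshold (limma adjusted p = 0.071) but passed with the replicate block (adjusted p = 0.0489). The kinase gene Ptk2b differed by 0.68 ± 0.26 and the adaptor gene Fyb by 0.40 ± 0.19, and neither passed. Fermt2, a kindlin gene, differed by -0.41 ± 0.25 and did not pass. Only its CX3CR1low sample 2 stood apart (6.21), and its CX3CR1low sample 1 (5.43) lay among the rest. The talin gene Tln1 (-0.04) and the kindlin gene of blood cells, Fermt3 (-0.06), which switch integrins to their binding state and are named here after their values were seen, differed by less.

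All 10 membrane partners of integrins were tested and limma called none in any comparison (background 0.399% between CX3CR1high and CX3CR1low cells). Of these, 4 were higher and 6 lower between CX3CR1high and CX3CR1low cells, with a median of -0.06 and 1 at an unadjusted p under 0.05. That was the tetraspanin gene Cd9, with signals of 8.67 and 8.98 in CX3CR1high, 7.07 and 7.98 in CX3CR1int and 7.80 and 7.96 in CX3CR1low samples. The CX3CR1high samples lay above all others, and the difference of 0.94 ± 0.28 between CX3CR1high and CX3CR1low cells did not pass (limma adjusted p = 0.292). Cd82 (0.11), Plaur (-0.12) and Bsg (-0.09) differed by less.

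**Figure D4:**
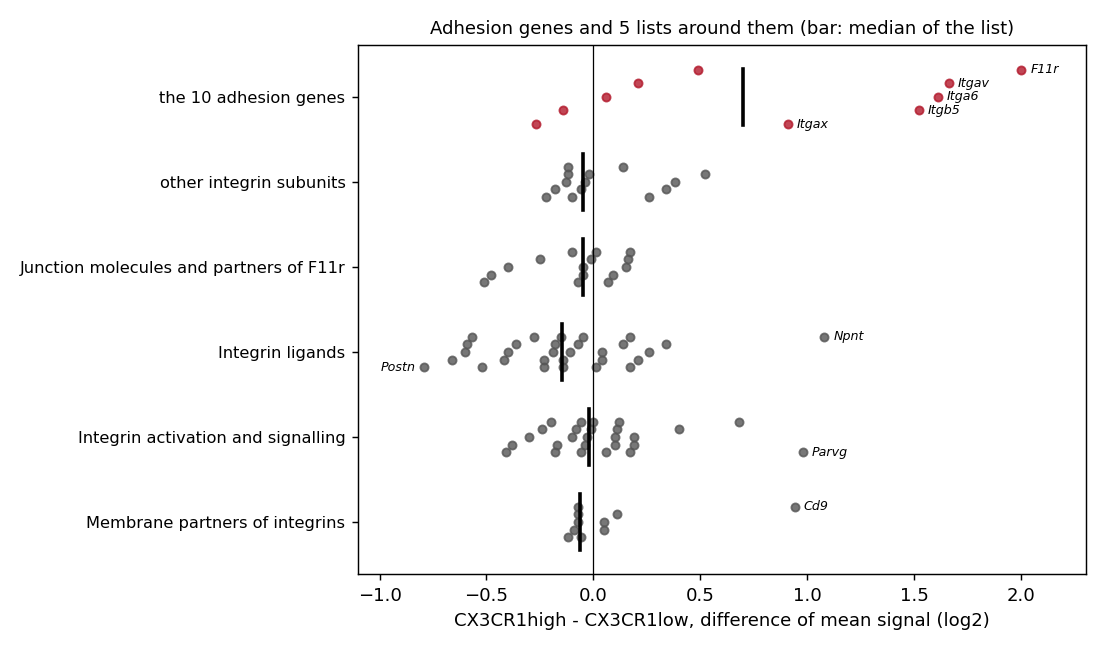
Differences of mean log2 signal between CX3CR1high and CX3CR1low cells (horizontal axis) for the 10 genes and for the tested genes of 5 lists around them; each point is a gene, and bars mark list medians. The medians are 0.70 for the 10 genes, which were chosen with these results known, and -0.05, -0.05, -0.15, -0.02 and -0.06 for the lists from top to bottom. The uppermost of the 5 lists holds the integrin subunits left after that choice, so its median is not compared with that of the 10 genes.

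Markers of other cells that express some of these genes moved in both directions. Keratinocytes carry F11r and Itga6, and 7 of their 8 marker genes were tested. All 7 were lower in CX3CR1high than in CX3CR1low cells and 1, Krt10, was called (background 0.399% of all genes in either direction). The summed signal of these 7 on the linear scale was 820 to 882 in CX3CR1high, 1032 to 1064 in CX3CR1int and 1411 to 2015 in CX3CR1low samples. Endothelial cells also carry both, and of 8 markers 5 were tested and lower without a call, while Kdr, Tek and Emcn had means below the dim level. The summed signal of all 8 was 190 to 233 in CX3CR1high, 224 to 268 in CX3CR1int and 292 to 311 in CX3CR1low samples. The keratinocyte sums did not overlap between subsets, while the endothelial sums of CX3CR1high and CX3CR1int samples did.

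Among markers of Langerhans cells, platelets and dendritic cells, the largest differences of CX3CR1high over CX3CR1low cells were those of Cd207, Ppbp and Ccr7. Of 3 Langerhans cell markers, Cd207 had signals of 7.57 and 8.07 in CX3CR1high, 6.00 and 6.85 in CX3CR1int and 6.72 and 6.48 in CX3CR1low samples (limma adjusted p = 0.181 for CX3CR1high against CX3CR1low), while Epcam and Cdh1 differed by -0.16 and -0.57. The summed signal of the 3 was 315 to 413 in CX3CR1high, 199 to 264 in CX3CR1int and 261 to 311 in CX3CR1low samples. Its rise over CX3CR1low samples came from Cd207 alone. Of 6 platelet markers 4 were tested, and Ppbp had signals of 9.06 and 8.76 in CX3CR1high, 8.39 and 7.74 in CX3CR1int and 8.05 and 7.37 in CX3CR1low samples. Its difference of 1.20 did not pass (limma adjusted p = 0.179) but did with the replicate block (0.0239), and Gp9, Treml1 and Gp6 differed by -0.18, 0.10 and -0.20. On the linear scale the platelet sum was made mostly of Ppbp and is no separate reading. It was 523 to 657 in CX3CR1high, 308 to 435 in CX3CR1int and 281 to 370 in CX3CR1low samples. Of the 4 dendritic cell markers 3 were higher and 1 lower, led by Ccr7 (1.31, limma adjusted p = 0.051, and 0.0239 with the replicate block), with sums of 206 to 261 in CX3CR1high, 217 to 232 in CX3CR1int and 160 to 163 in CX3CR1low samples.

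Markers of the remaining cell types were mostly lower in CX3CR1high than in CX3CR1low cells. Of 7 fibroblast markers 5 were lower and 2 higher, and limma called none. With the replicate block 4, all lower, were called (background 0.992% of all genes in either direction). The sums of the 7 were 1661 to 1795 in CX3CR1high, 2320 to 2466 in CX3CR1int and 2971 to 4608 in CX3CR1low samples. Of 6 mast cell markers 5 were tested and lower, with Cpa3, Mcpt4 and Cma1 called (background 0.399% of all genes in either direction). The sum over all 6 was 149 to 163 in CX3CR1high, 343 to 388 in CX3CR1int and 484 to 696 in CX3CR1low samples. Of the monocyte pair, Ly6c2 was lower (-2.65) and Ccr2 higher (1.24) without a call against CX3CR1low cells, Ly6c2 was called lower against CX3CR1int cells, and with the replicate block it was called lower against CX3CR1low cells too (limma adjusted p = 0.00484, against 0.0586 without it). The median difference was -0.61 for 3 melanocyte markers, -0.26 for 2 of 4 neutrophil markers, 0.24 for 2 of 4 T, NK and innate lymphoid cell markers and 0.00 for the single Schwann cell marker tested, and none of these was called. The part of these cells in the levels of F11r, Itga6, Itgax and the other genes was not tested.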

How the data were processed

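Per the submitters' processing notes, the deposited values were log2 signals made by RMA in Affymetrix Expression Console 1.4, and no further normalization was applied. The RNA of the sorted cells was amplified over whole transcripts, per the labels' protocols. Of 34390 probe sets 23521 had exactly 1 gene symbol, and the brightest stood for each of 22180 genes. A filter at the 30th percentile of mean signal (4.335) kept 15529 of them. All 6 samples entered a limma 3.58.1 fit in R 4.3.3 with a mean per subset, a variance prior that follows intensity and two-sided p-values adjusted by Benjamini-Hochberg over the 15529 genes, a gene being called below 0.05. The variance rested on 3 residual and 5.77 prior degrees of freedom. The fit was run on simulated data with independent noise and no replicate effect, to check that added differences were estimated. That run does not bear on replicate effects or on the calls made here. Deviations of equal replicate numbers correlated at 0.146, 0.136 and 0.178 across genes for the 3 pairs of subsets and shared a sex composition, so the replicate block was run beside each result. Each p-value sets a difference of subset means against the spread between samples of a subset, pooled over the 3 subsets and moderated by the prior. Without the block this spread includes the difference in sex composition between the replicates.

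The genes and the 18 lists, 5 around the integrins and 13 of cell type markers, were chosen with earlier results of these data known. Named were the listed 10, every called gene of a list, up to 4 genes per list of the 5 with the largest difference between CX3CR1high and CX3CR1low cells, and the 5 genes most correlated with each called gene. Listed genes without a probe set of a single symbol were not analysed here. Promoter windows came from RefSeq (GRCm38.p6), and the build behind the array annotation is not given in the sources used here.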

Additional observations from a re-analysis of the deposited data

How the results depend on the processing

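With the replicate block 154 genes were called between CX3CR1high and CX3CR1low cells, against 62, and 47 between CX3CR1high and CX3CR1int cells, against 22. Of the 10 adhesion genes the block called 4 against CX3CR1low cells, as did the fit without it, and 3 instead of 2 against CX3CR1int cells. Without the filter on dim genes, 26 and 0 genes were called in these comparisons, with 1 (Itga6) and 0 of the 10 among them. Fitting only the 4 samples compared called 39 and 14 genes. Against CX3CR1int cells, the fit without an intensity trend called 4 genes and the repeated quantile normalization 8, with 1 of the 10, Itga6, in each. The single call between CX3CR1int and CX3CR1low cells, of no adhesion gene, became 0 under the block, no filter, no trend, the repeated normalization and the 4 samples alone. Leaving out 1 sample in turn gave 0 to 39 calls between CX3CR1high and CX3CR1low cells, with 0 to 3 of the 10 genes among them, 0 to 17 between CX3CR1high and CX3CR1int cells, with 0 to 2 of the 10, and 0 between CX3CR1int and CX3CR1low cells, where a lone sample was assumed to vary like the other subsets. These fits have fewer residual degrees of freedom. No called difference of the 10 changed sign under any alternative run. Their samples did not overlap, so leaving out 1 sample could not reverse a sign. The block, the trend, the filters and the 4 samples alone leave a difference as it is. Differences of the 10 that were not called moved by more than the spread between replicates in 28 of 310 recalculations. Many of the 310 repeat the main value by construction, so neither result measures stability. With 2 arrays per subset, changes close to 2-fold can be missed. Signals near the dim level, such as those of Itgb3 and some of Itgax, show little of a difference.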
